A study of Homo sapiens with 12 samples.

Results

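Ribosomes are assembled in the nucleolus, and the genes that do this work were followed here through 4 states of U937 cells. U937 is a human line from a histiocytic lymphoma with the character of an immature monocyte. PMA, a phorbol ester that activates protein kinase C, makes it stop dividing and take on features of a macrophage. The list held 50 genes chosen by name for their part in ribosome biogenesis or as nucleolar proteins, with no measured value in the rule. Earlier results of these data were known when it was chosen, as for the gene pairs, further genes and motifs below. A gene was measured where the array annotation gave it a probe set of its own, and the brightest such probe set, by its average across the 12 arrays, stood for the gene. By that rule 43 of the 50 genes were measured, of 19775 genes in all. BOP1, DDX18, DKC1, EBNA1BP2, GNL3, NOP56 and PPAN had no such probe set and are named only. No filter on dim genes was applied, so all 43 measured genes were tested.

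RNA polymerase I transcribes one long precursor that holds most of the ribosomal RNA. Small nucleolar ribonucleoproteins then modify this precursor: box C/D particles add methyl groups and box H/ACA particles turn uridine into pseudouridine. Large assemblies of further proteins, helicases and nucleases fold, cut and mature it into the small and large subunits. Growing leukaemia cells keep large nucleoli, and MYC with its partner MAX is a well known activator of these genes through the E-box sequence.

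The 4 groups came from U937 cells transduced with a TRIPZ cassette for a Tet-On shRNAmir against ZXDC1/2, the products of the ZXDC gene, and held under puromycin. All arrays carry that cassette, including the controls, and a single shRNAmir clone was used, so an effect of doxycycline itself and one of the knockdown cannot be told apart. The groups were vehicle (0.1% DMSO), vehicle with doxycycline, PMA (100 nM) and PMA with doxycycline, with 3 arrays each, labelled as biological replicates. By the labels doxycycline was given at 0.5 µg/mL daily for 4 days, and PMA or vehicle was added after the first 2 of those days for 3 days. The 2 days before and the 3 days of the agent exceed the 4 days of doxycycline. These times are given as stated, and whether doxycycline was present until harvest is not known. Levels are RMA values, log2 intensities that set the arrays to one common distribution, so a difference of 1 is a change by a factor of 2. Because bulk RNA was set to one scale, fewer cells with a transcript, less transcript per cell and a change in total RNA per cell cannot be told apart.

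The array medians lay between 5.16 and 5.22 over 54675 probe sets, and no pair of arrays was identical. The ZXDC probe set used differed by -0.49 log2 with doxycycline in vehicle and by -0.50 in PMA. Neither difference passed the test (limma, adjusted p = 0.9998 and 0.613, unadjusted p = 0.00725 and 0.00639). In both agents all 3 ZXDC values with doxycycline lay below all 3 without it, as for 3.47% and 5.90% of all genes. Of 8 measured myeloid markers, ANPEP, CEBPA, CEBPB, LYZ and ITGAM lay above the median gene on all 12 arrays, while SPI1, CSF1R and FCGR1A did not. None of the measured markers of T cells, B cells, erythroid or epithelial cells did so on all 12. The summed log2 level of the myeloid markers ran from 64.57 to 65.29 in vehicle and from 71.89 to 74.99 in PMA. The B cell sum ran from 22.45 to 22.94 in vehicle and from 19.9 to 21.57 in PMA, with PAX5 at a mean of 7.27 and 5.90, and the erythroid sum from 22.18 to 22.79 and from 21.31 to 21.87. The T cell and epithelial sums overlapped between vehicle and PMA. The part of these shifts in the differences described here was not tested. The arrays numbered 1 stood apart in RNA quality: the 3′ minus 5′ difference of the ACTB control probe sets was 1.99 to 2.72 log2 on those 4 arrays and 0.71 to 1.64 on the other 8. What this goes with in the listed genes is given with the results.

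PMA lowered most of the ribosome biogenesis genes. Without doxycycline 34 of 43 fell, 1 rose and 8 did not pass the test (limma, adjusted p below 0.05), while over all genes 18.9% were called lower and 12.7% higher. With doxycycline in both arms 33 of 43 fell, 1 rose and 9 did not pass, against 19.5% called lower and 13.0% called higher over all genes. Many of all genes are dim. Refitted on the 13147 genes with a mean of at least 5 log2, 3685 and 3804 were called lower, and 36 and 34 of the 43. The median difference over the 43 genes was -0.83 log2 without doxycycline and -0.79 with it, next to 0.01 and -0.01 over all genes. At the median a gene kept 56.3% of its vehicle level without doxycycline. A fall of at least 1 log2 was called for 10 genes without doxycycline and for 14 with it, where 6.27% and 6.88% of all genes had one. All 3 PMA arrays lay below all 3 vehicle arrays for 35 genes, which was so for 23.0% of all genes, and with doxycycline for 33 genes, against 24.4%. The genes lie on 17 chromosomes, with at most 8 on one of them, chromosome 2. A difference below 0, whether or not it passed, was found for 40 of 43 genes in each comparison, against 48.2% of all genes without and 51.8% with doxycycline.

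**Figure D1:**
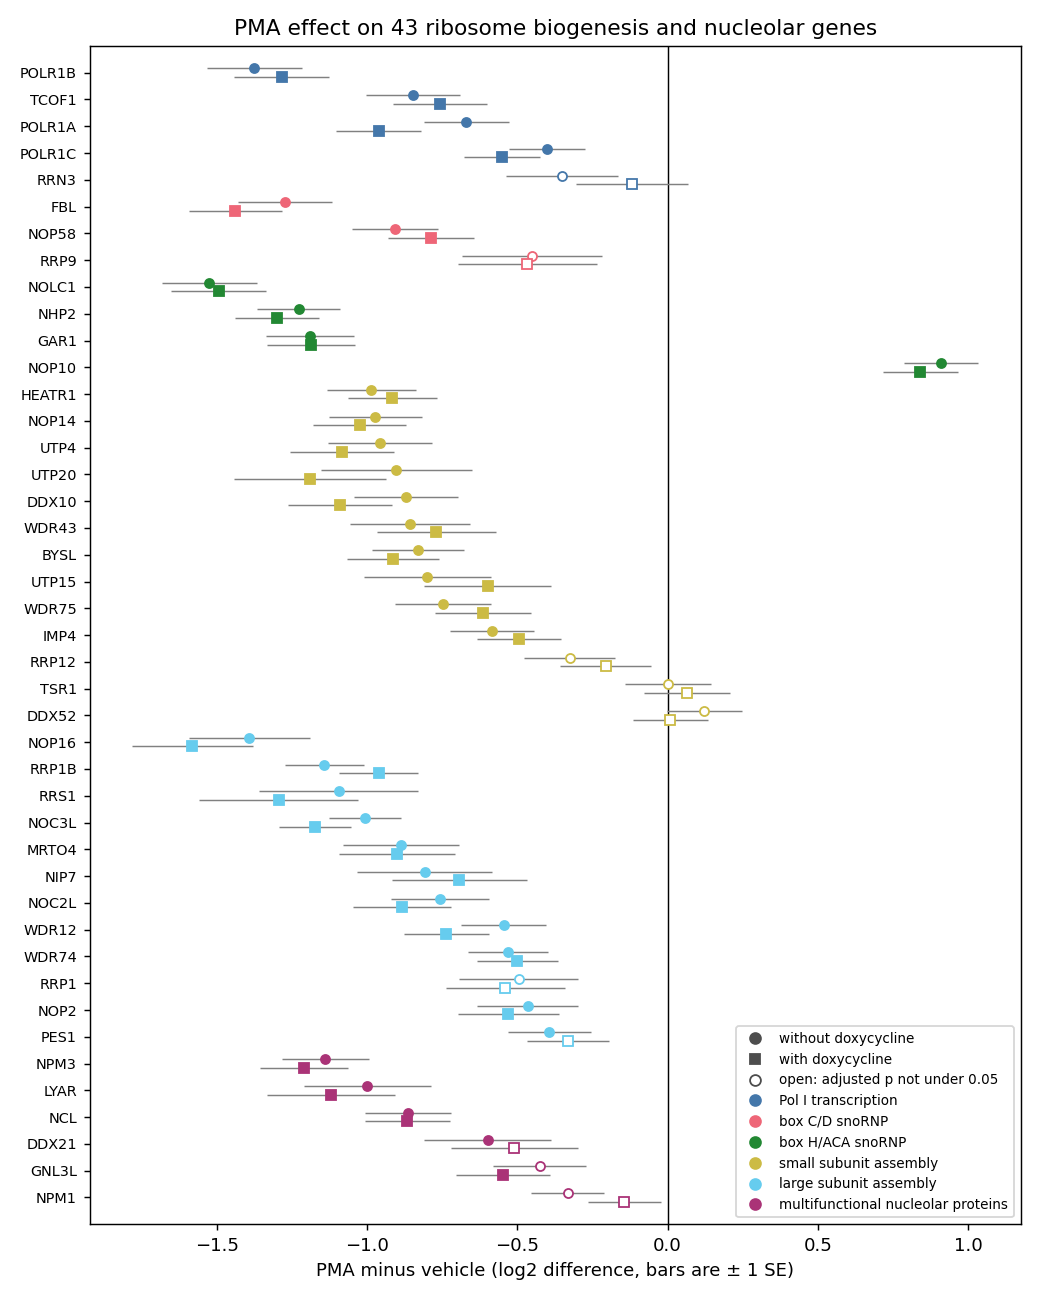
Difference between PMA and vehicle (log2, horizontal axis) for each of the 43 measured genes, grouped by role, without and with doxycycline; points are the fitted differences of 3 against 3 arrays and bars their standard errors. Nearly all points lie left of 0, down to -1.58 for NOP16 with doxycycline, and NOP10 lies to the right at 0.91 and 0.84.

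The promoters of the listed genes are shown here because MYC and MAX bind the E-box CACGTG, and 18 of the 41 listed genes with a promoter entry hold it. The entries are RefSeq windows of 300 bases on GRCh38.p14, from 250 before to 50 after a start, and 9 of the 50 genes had none. The motif reads the same on both strands. A match was found in 43.9% of these 41 genes and in 10.9% of the 15384 measured genes with an entry. The 2 sets are not alike, since the 41 include genes that were not measured, among them EBNA1BP2 and GNL3, which hold the motif. Of the 18 genes, 17 had a match within 50 bases of the start. The windows end 50 bases after the start, so any match after it lay within that distance. The matching share over all genes with an E-box was not taken. By role it stood in 0 of 4 genes of polymerase I transcription, 2 of 3 of the box C/D group, 2 of 4 of the box H/ACA group, 6 of 11 for the small subunit, 5 of 12 for the large subunit and 3 of 7 multifunctional proteins. Printed are 60 bases each, with the E-box in capitals. They are from the gene with the largest called fall among E-box genes of 4 roles and from the gene that rose. NOP16 is added as the gene with the largest fall among those with an entry and no match. For the 4 roles only an E-box that ended at most 30 bases past the start was considered. GAR1 of the box H/ACA group fell too, but its E-box begins 31 bases past the start, so it is not printed. All printed stretches run 5′ to 3′ on the minus strand, across or before the start on which their window was built. For LYAR that is an inner start: the gene reaches to base 4290154 of chr4, so its stretch lies within the gene.
FBL, chr19:39846368-39846427: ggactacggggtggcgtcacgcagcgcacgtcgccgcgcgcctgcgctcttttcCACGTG
NOP14, chr4:2963386-2963445: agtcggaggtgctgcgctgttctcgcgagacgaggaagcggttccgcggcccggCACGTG
NOC3L, chr10:94362915-94362974: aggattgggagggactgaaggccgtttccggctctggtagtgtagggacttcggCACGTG
LYAR, chr4:4290053-4290112: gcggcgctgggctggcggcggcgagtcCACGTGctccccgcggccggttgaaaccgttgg
NOP10, chr15:34343137-34343196: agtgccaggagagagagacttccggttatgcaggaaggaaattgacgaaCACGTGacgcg
NOP16, chr5:176388599-176388658: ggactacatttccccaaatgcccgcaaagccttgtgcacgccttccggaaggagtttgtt

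Counting the start base as 0, the E-box begins at base 6 in FBL, 15 in NOP14, 19 in NOC3L, -64 in LYAR and -11 in NOP10, which has a further one at -170. Among the listed genes with both a promoter entry and a measured level, 14 of the 16 with an E-box fell with PMA without doxycycline, and 15 of the 20 without one did. With doxycycline the counts were 12 of 16 and 16 of 20. The median difference was -0.87 log2 with and -0.75 without the motif, and -0.91 and -0.71 in the arms with doxycycline. Over all genes 26.8% of those with an E-box were called lower without doxycycline, as were 19.6% of those without one. With doxycycline the shares were 27.2% and 20.2%. NOP10 rose with 2 matches and NOP16 fell with none in its window. Whether the fall goes with the E-box was not tested. The palindromic consensus of NRF1 was also searched and stood in DKC1 and DDX10, 4.88% of the 41 genes against 2.04% of measured genes. DKC1 was itself not measured. That of ZBTB33 stood in NOP14, 2.44% against 0.683%.

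Of the 5 genes of RNA polymerase I transcription, 4 fell in each comparison, with a median difference of -0.67 log2 without and -0.76 with doxycycline. POLR1B, the second largest subunit of the enzyme, fell most. Its arrays read 9.85, 10.16 and 10.19 in vehicle and 8.92, 8.49 and 8.67 in PMA, and with doxycycline 9.75, 9.88 and 10.14 against 8.91, 8.55 and 8.46. The vehicle and PMA arrays did not overlap in either pair of groups. POLR1B fell by 1.37 log2 (SE 0.16, adjusted p = 1.22e-05) to 38.6% of its vehicle level, and fell by 1.28 (adjusted p = 1.98e-05) with doxycycline. POLR1A, the largest subunit, read 7.12, 7.51 and 7.75 in vehicle and 6.87, 6.82 and 6.69 in PMA, a difference of -0.67 (SE 0.14, adjusted p = 0.00194). With doxycycline it went from 7.39, 7.36 and 7.41 to 6.37, 6.34 and 6.57, a difference of -0.96 (adjusted p = 9.06e-05). POLR1A thus had a mean of 6.42 in PMA with doxycycline and 6.79 in PMA alone, a difference taken up with the doxycycline results. POLR1C, a subunit shared with RNA polymerase III, fell by 0.40 (SE 0.13, adjusted p = 0.0263) and fell by 0.55 with doxycycline (adjusted p = 0.00361). Its call without doxycycline was lost when array 2 or 3 of vehicle or of PMA was left out (adjusted p = 0.0647 to 0.120). TCOF1, the treacle protein that brings the enzyme to ribosomal DNA, fell by 0.85 (SE 0.16, adjusted p = 0.000691), and with doxycycline it fell by 0.76 (adjusted p = 0.00159), to 55.6% and 59.2% of the vehicle level. Its one probe set without sequence shared with other transcripts, a dimmer one, stood at 0.04 (adjusted p = 0.836). RRN3, the initiation factor that carries growth signals to the enzyme, did not pass. Its arrays overlapped, with 8.71, 9.18 and 8.91 in vehicle and 9.003, 8.35 and 8.39 in PMA, a difference of -0.35 (SE 0.19, adjusted p = 0.188), and -0.12 with doxycycline. RRN3 has pseudogenes close to it in sequence, and 2 further probe sets that the annotation also gives to those copies were left out, so its level is uncertain. Without PMA array 1 the RRN3 difference was -0.56 and passed (adjusted p = 0.0198).

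Of the 3 measured proteins of box C/D particles, FBL and NOP58 fell in both comparisons and RRP9 did not pass. FBL, fibrillarin, is the methyltransferase of these particles. It read 12.34, 12.53 and 12.44 in vehicle and 11.43, 10.93 and 11.13 in PMA, so the mean went from 12.44 ± 0.09 to 11.16 ± 0.25 (SD, n = 3). The difference of -1.27 log2 (SE 0.16, adjusted p = 2.00e-05) left 41.4% of the vehicle level. With doxycycline FBL went from 12.24, 12.41 and 12.38 to 11.26, 10.74 and 10.72, a difference of -1.44 (adjusted p = 5.93e-06) that left 36.9%. NOP58, a core scaffold of the particle, went from 11.05, 11.47 and 11.27 to 10.45, 10.11 and 10.52, a difference of -0.91 (SE 0.14, adjusted p = 0.000193), and fell by 0.79 with doxycycline (adjusted p = 0.000575). Its arrays did not overlap in either comparison. RRP9, which binds the U3 particle needed for the first cuts of the precursor, spread widely in vehicle, with 6.25, 6.90 and 6.96 against 5.96, 6.28 and 6.52 in PMA. The difference of -0.45 (SE 0.23, adjusted p = 0.175) did not pass, nor did that of -0.47 with doxycycline (adjusted p = 0.158). Both passed once array 1 of the vehicle arm was left out, at -0.67 (adjusted p = 0.0414) and -0.74 (adjusted p = 0.0129).

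The box H/ACA group held the largest fall of the list without doxycycline and its one rise. NOLC1, a phosphoprotein that escorts these particles between the nucleolus and Cajal bodies, read 11.81, 12.45 and 12.32 in vehicle and 10.68, 10.68 and 10.63 in PMA. It fell by 1.52 log2 (SE 0.16, adjusted p = 4.85e-06) to 34.8%, which put it at the 2.52 percentile of the differences of all genes. With doxycycline NOLC1 went from 11.86, 12.16 and 12.33 to 10.72, 10.62 and 10.53, a difference of -1.49 (adjusted p = 5.09e-06). GAR1 and NHP2 are structural proteins of the pseudouridine-forming complex and of telomerase. GAR1 went from 9.98, 10.42 and 10.45 to 9.22, 8.97 and 9.10, a difference of -1.19 (SE 0.14, adjusted p = 1.97e-05), and fell by 1.19 with doxycycline as well (adjusted p = 1.77e-05). NHP2 went from 12.01, 12.33 and 12.26 to 10.96, 10.94 and 11.02, a difference of -1.23 (SE 0.14, adjusted p = 9.88e-06) that left 42.7%, and fell by 1.30 with doxycycline (adjusted p = 5.19e-06). In all 3 genes every PMA array lay below every vehicle array.

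NOP10, the smallest protein of the same complex, moved the other way. Its arrays read 12.52, 12.58 and 12.58 in vehicle and 13.25, 13.55 and 13.61 in PMA, and with doxycycline 12.48, 12.70 and 12.53 against 13.22, 13.50 and 13.51. Every PMA array was above every vehicle array, which was so for 18.8% of all genes without doxycycline and 18.1% with it. NOP10 rose by 0.91 log2 (SE 0.12, adjusted p = 5.28e-05) to 187.8% of the vehicle level, and rose by 0.84 (SE 0.12, adjusted p = 9.41e-05) with doxycycline. This places it at the 94.8 percentile of all differences. A single probe set measured NOP10, so no second one on the array could be compared.

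**Figure D2:**
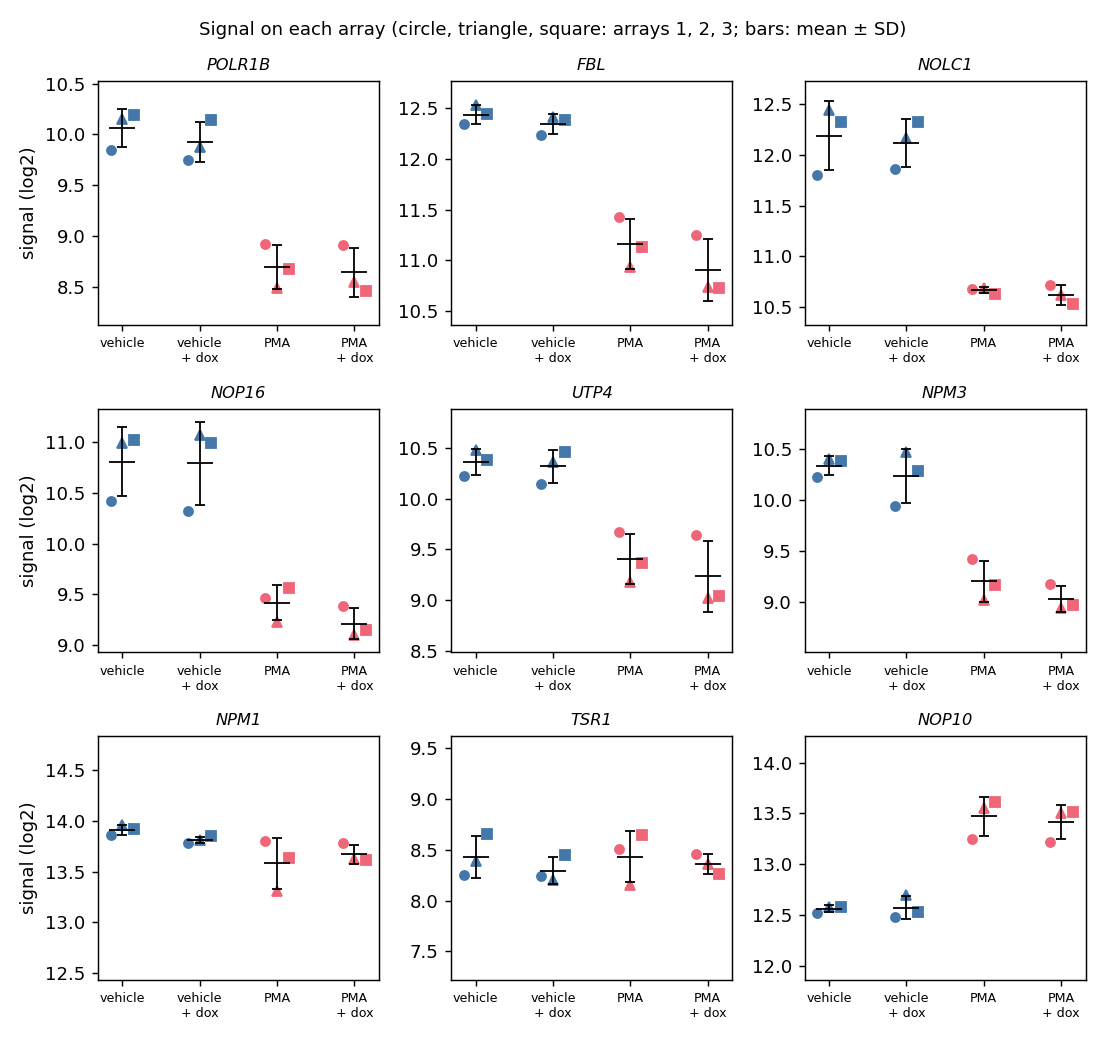
RMA log2 intensity (vertical axis) on each of the 12 arrays for selected genes of the list, with the groups along the horizontal axis; symbols are single arrays (circle, triangle and square for numbers 1, 2 and 3) and bars the mean ± SD of 3 arrays. NOLC1, NOP16, FBL and POLR1B are lower on every PMA array than on every vehicle array with the same doxycycline status, NOP10 is higher, and the TSR1 groups overlap.

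Of 13 genes of small subunit assembly, 10 fell in each comparison, with a median difference of -0.83 log2 without and -0.77 with doxycycline. None of the falls without doxycycline reached 1 log2, and 4 did with it. HEATR1, a scaffold of the UTP-A complex that links transcription of the precursor to its processing, read 10.55, 10.69 and 10.68 in vehicle and 9.93, 9.49 and 9.53 in PMA. The groups stood apart, and HEATR1 fell by 0.99 (SE 0.15, adjusted p = 0.000125) to 50.5%, and fell by 0.92 with doxycycline (adjusted p = 0.000217). UTP4, a further member of UTP-A, fell by 0.96 (adjusted p = 0.000574), and with doxycycline it fell by 1.08 (adjusted p = 0.000192). UTP15 of the same complex fell by 0.80 (adjusted p = 0.00909), and with doxycycline it fell by 0.60 (adjusted p = 0.0428). The UTP15 arrays overlapped with doxycycline, where 7.27, 7.39 and 7.83 stood against 7.28, 6.78 and 6.63, and that call was lost without array 2 or 3 of either of these groups or array 3 of PMA (adjusted p = 0.0552 to 0.192). WDR43, also of UTP-A, fell by 0.86 (adjusted p = 0.00377), with a difference of -0.77 under doxycycline (adjusted p = 0.00747). WDR75, likewise, fell by 0.75 (adjusted p = 0.00208), with a difference of -0.61 under doxycycline (adjusted p = 0.00774).

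NOP14, an early assembly factor of the small subunit, read 9.01, 9.32 and 9.13 in vehicle and 8.44, 8.06 and 8.05 in PMA. It fell by 0.97 log2 (adjusted p = 0.000204) and fell by 1.02 with doxycycline (adjusted p = 0.000117). UTP20 is a very large protein of the same precursor particle. Among the small subunit genes UTP20 varied most within vehicle, from 7.44 to 8.43, and it read 7.19, 7.04 and 6.85 in PMA. It still fell by 0.90 (SE 0.25, adjusted p = 0.0126), and fell by 1.19 with doxycycline (adjusted p = 0.00189). The first call was lost without vehicle array 2, at -0.65 (adjusted p = 0.0727), or PMA array 3, at -0.82 (adjusted p = 0.0531). DDX10, a helicase, fell by 0.87 (adjusted p = 0.0012), and with doxycycline it fell by 1.09 (adjusted p = 0.000175). BYSL, bystin, which acts late in the pathway, fell by 0.83 (adjusted p = 0.000704), and with doxycycline it fell by 0.91 (adjusted p = 0.000296). IMP4, a partner of the U3 particle, fell by 0.58 (adjusted p = 0.00503) and fell by 0.49 with doxycycline (adjusted p = 0.0139), a call lost without array 2 or 3 of vehicle with doxycycline or array 2 of PMA with doxycycline (adjusted p = 0.0610 to 0.0669).

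TSR1, RRP12 and DDX52 did not pass in either comparison. TSR1, a GTPase-like factor of late small subunit maturation, read 8.25, 8.39 and 8.66 in vehicle and 8.51, 8.15 and 8.64 in PMA, a difference of 0.00 (SE 0.14, adjusted p = 0.995), and 0.06 with doxycycline. Other probe sets of TSR1 were called lower, as given with the probe sets. RRP12, an export factor of both subunits, differed by -0.33 (SE 0.15, adjusted p = 0.131) and -0.21 (adjusted p = 0.364); without vehicle array 1 the first was -0.47 and passed (adjusted p = 0.0316). DDX52, a helicase of early processing, differed by 0.12 (SE 0.12, adjusted p = 0.535) and 0.01 (adjusted p = 0.968). For each of these genes the vehicle and PMA arrays overlapped.

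Of 12 measured genes of large subunit assembly, 11 fell without doxycycline and 10 with it, with medians of -0.78 and -0.81 log2. NOP16, a nucleolar protein of early large subunit particles, had the largest fall of the whole list with doxycycline. Its arrays read 10.42, 10.99 and 11.02 in vehicle and 9.47, 9.23 and 9.56 in PMA, and with doxycycline 10.32, 11.07 and 10.99 against 9.39, 9.10 and 9.15. The lowest vehicle array was well above the highest PMA array in both pairs of groups. NOP16 fell by 1.39 (SE 0.20, adjusted p = 8.99e-05) to 38.1%, and fell by 1.58 (SE 0.20, adjusted p = 2.55e-05) to 33.4%. RRP1B, a nucleolar partner of protein phosphatase 1, went from 11.36, 11.63 and 11.58 to 10.60, 10.31 and 10.25, a difference of -1.14 (SE 0.13, adjusted p = 1.18e-05), and fell by 0.96 with doxycycline (adjusted p = 4.97e-05). RRS1, which helps to place the 5S particle, went from 9.70, 10.67 and 10.71 to 9.25, 9.22 and 9.33, a difference of -1.09 (SE 0.26, adjusted p = 0.00505), and fell by 1.29 with doxycycline (adjusted p = 0.00143). In RRS1 vehicle array 1 lay closer to the PMA arrays than to the other vehicle arrays.

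NOC3L, which joins early large subunit particles, read 9.74, 10.00 and 9.82 in vehicle and 9.01, 8.68 and 8.84 in PMA. It fell by 1.01 log2 (SE 0.12, adjusted p = 1.6e-05) to 49.8%, and fell by 1.17 with doxycycline (adjusted p = 3.57e-06) to 44.4%. NOC2L, its relative that also binds p53 and histones, fell by 0.76 (adjusted p = 0.00226), and with doxycycline it fell by 0.88 (adjusted p = 0.000634). MRTO4, which holds the place of the stalk protein P0, fell by 0.89 (adjusted p = 0.00249), and with doxycycline it fell by 0.90 (adjusted p = 0.00212). NIP7, a small factor of large subunit maturation, fell by 0.81 (adjusted p = 0.0126) and fell by 0.69 with doxycycline (adjusted p = 0.0288). The first call was lost without vehicle array 2 or 3 or PMA array 2 (adjusted p = 0.0630 to 0.0696), and the other without array 2 or 3 of either group with doxycycline (adjusted p = 0.0679 to 0.138).

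WDR12 and PES1 belong to the PeBoW complex with BOP1. WDR12 fell by 0.54 log2 (adjusted p = 0.00823) and fell by 0.74 with doxycycline (adjusted p = 0.000892). PES1 read 7.88, 8.20 and 8.29 in vehicle and 7.59, 7.79 and 7.82 in PMA and fell by 0.39 (SE 0.14, adjusted p = 0.0413). With doxycycline its difference of -0.33 did not pass (adjusted p = 0.0847). The PES1 call was lost in 7 of the 12 fits that each left out 1 array (adjusted p up to 0.170, without vehicle array 3), and with doxycycline it passed without array 1 of vehicle with doxycycline, at -0.44 (adjusted p = 0.0298). WDR74, which works with a nuclear AAA ATPase on early particles, fell by 0.53 (adjusted p = 0.00698) and fell by 0.50 with doxycycline (adjusted p = 0.00992), the latter lost without array 3 of vehicle with doxycycline (adjusted p = 0.0563). NOP2, a methyltransferase known as a proliferation antigen, fell by 0.46 (adjusted p = 0.0487), and with doxycycline it fell by 0.53 (adjusted p = 0.0251), the first being close to the threshold. Its calls were lost in 9 and 4 of the 12 fits that each left out 1 array, with adjusted p up to 0.175 without vehicle array 3 and up to 0.127 without array 3 of vehicle with doxycycline. RRP1, the paralog of RRP1B, did not pass, with differences of -0.50 (SE 0.20, adjusted p = 0.0746) and -0.54 (adjusted p = 0.0505). RRP1 passed in both comparisons without array 1 of vehicle with doxycycline (adjusted p = 0.0367 and 0.00695).

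Among 6 measured multifunctional nucleolar proteins, 4 fell in each comparison, with medians of -0.73 and -0.71 log2. NCL, nucleolin, an abundant RNA chaperone, read 12.001, 12.51 and 12.32 in vehicle and 11.42, 11.31 and 11.52 in PMA. It fell by 0.86 (SE 0.14, adjusted p = 0.000268) and fell by 0.87 with doxycycline (adjusted p = 0.000243). A second, dimmer NCL probe set, the one without shared sequence, differed by -0.22 (adjusted p = 0.371) and by -0.31 (adjusted p = 0.187). NPM3, a chaperone of the nucleoplasmin family, went from 10.23, 10.40 and 10.39 to 9.42, 9.02 and 9.16, a difference of -1.14 (SE 0.15, adjusted p = 2.97e-05) that left 45.4%, and fell by 1.21 with doxycycline (adjusted p = 1.54e-05). LYAR, a nucleolar zinc finger protein of dividing cells, spread widely in PMA, with 10.50, 9.67 and 10.16 against 10.88, 11.30 and 11.16 in vehicle. It fell by 1.00 (SE 0.21, adjusted p = 0.00206), and with doxycycline it fell by 1.12 (adjusted p = 0.000804).

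The remaining 3 of these proteins lay near the threshold. DDX21, a helicase that senses transcription by polymerases I and II, read 11.08, 11.81 and 11.59 in vehicle and 11.11, 10.67 and 10.91 in PMA. Array 1 of vehicle was below array 1 of PMA, so the groups overlapped, and DDX21 fell by 0.60 (SE 0.21, adjusted p = 0.0443); with doxycycline the difference of -0.51 did not pass (adjusted p = 0.0847). The DDX21 call was lost in 7 of the 12 fits that each left out 1 array, with adjusted p up to 0.196 without vehicle array 2, and with doxycycline it passed without array 1 of vehicle with doxycycline, at -0.73 (adjusted p = 0.0128). NPM1, nucleophosmin, the most studied nucleolar chaperone and a gene mutated in myeloid leukaemia, read 13.86, 13.96 and 13.92 against 13.80, 13.31 and 13.63. Its difference of -0.33 (SE 0.12, adjusted p = 0.0517) missed the threshold although the arrays did not overlap, and with doxycycline it was -0.14 (adjusted p = 0.441). Without PMA array 1 the first was -0.44 and passed (adjusted p = 0.0126). NPM1 has many processed pseudogenes, so its level is uncertain. GNL3L, a GTPase related to nucleostemin, differed by -0.43 (SE 0.16, adjusted p = 0.0517) without doxycycline and fell by 0.55 (adjusted p = 0.0138) with it. It passed without doxycycline too once vehicle array 1 was left out, at -0.61 (adjusted p = 0.00393), and its call with doxycycline was lost without array 2 or 3 of vehicle with doxycycline or array 3 of PMA with doxycycline (adjusted p = 0.0538 to 0.0581).

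Related genes of the list, paralogs or in 1 case the largest subunits of RNA polymerase I, were set against each other directly, as the difference between the change of one and the change of the other. Of 5 such pairs, 3 had both genes measured, and their p-values are from a two-sided exact permutation test within doxycycline status over 400 relabelings, adjusted over the 3 pairs. NPM1 changed less than NPM3, by 0.81 log2 (SE 0.06) without and 1.07 (SE 0.15) with doxycycline (exact p = 0.005, the smallest the design allows, adjusted p = 0.015). POLR1A changed less than POLR1B, by 0.71 (SE 0.14) and 0.32 (SE 0.22) (exact p = 0.015, adjusted p = 0.0225). RRP1 changed less than RRP1B, by 0.65 (SE 0.26) and 0.42 (SE 0.24) (exact p = 0.025, adjusted p = 0.025). These are differences of changes, not of levels, and each rests on the one probe set that stands for a gene. The pairs were chosen with earlier results of these data known, so the p-values are no independent support. NOP56 with NOP58 and GNL3 with GNL3L could not be compared, since one of each pair was not measured.

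The pair of comparisons used separate arrays, 6 for each doxycycline status, but the calls were not separate. The spread of each gene was taken from all arrays together. Thus the NOP2 call without doxycycline was lost when any single array of PMA with doxycycline was left out (limma, adjusted p = 0.051 to 0.062). The same 32 genes fell in both. These are 94.1% of the 34 that fell without doxycycline and 97.0% of the 33 that fell with it. The matching shares over all genes called lower were not taken, so whether these shares stand out was not tested. DDX21 and PES1 were called without doxycycline alone and GNL3L with it alone, but in none of these did the difference between the changes pass the test of the interaction, which called 0 of 43 genes. In both comparisons RRN3, RRP9, TSR1, RRP12, DDX52, RRP1 and NPM1 did not pass. Over the 43 genes the differences correlated with r = 0.96 across genes, which share arrays within each comparison and are not independent. The change with and without doxycycline differed by a median of 0.11 log2 in size and at most by 0.29, in POLR1A.

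Most listed genes had more than the probe set that stood for them, 91 in all. Fitted over all probe sets, 60 of the 91 fell, 1 rose and 30 did not pass in each PMA comparison, where 13.2% of all probe sets were called lower without and 13.8% with doxycycline. The 48 probe sets that had not been chosen, from 26 genes, give a view of the same transcripts apart from the choice of the brightest. Of these 29 fell without doxycycline and 28 with it, and 0 rose. Among the 30 whose mean was at least 6 log2, 25 fell, and among the 18 dimmer ones 4 did. The matching shares over all probe sets of each brightness were not taken, so whether these counts stand out was not tested. TSR1 was the clearest conflict within a gene: its brightest probe set differed by 0.00, while the others stood at -1.17 (adjusted p = 0.0036), -1.14 (adjusted p = 0.00427) and -0.51 (adjusted p = 0.111). For DDX52 one probe set fell by 0.66 (adjusted p = 0.00493) and the other 3 did not pass. The other NPM1 probe sets fell, by differences of -0.49 (adjusted p = 0.0496) and -0.41 (adjusted p = 0.0154), and with doxycycline of -0.58 (adjusted p = 0.0206) and -0.45 (adjusted p = 0.00894). RRP1B had a second probe set at 0.11 (SE 0.12, adjusted p = 0.592), against the fall of the brighter one. All 5 probe sets of RRP12 failed to pass. In this wider fit the chosen probe sets of DDX21 (adjusted p = 0.0579), NOP2 (adjusted p = 0.0641) and PES1 (adjusted p = 0.0557) no longer passed without doxycycline, nor did that of UTP15 with it (adjusted p = 0.0557).

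**Figure D3:**
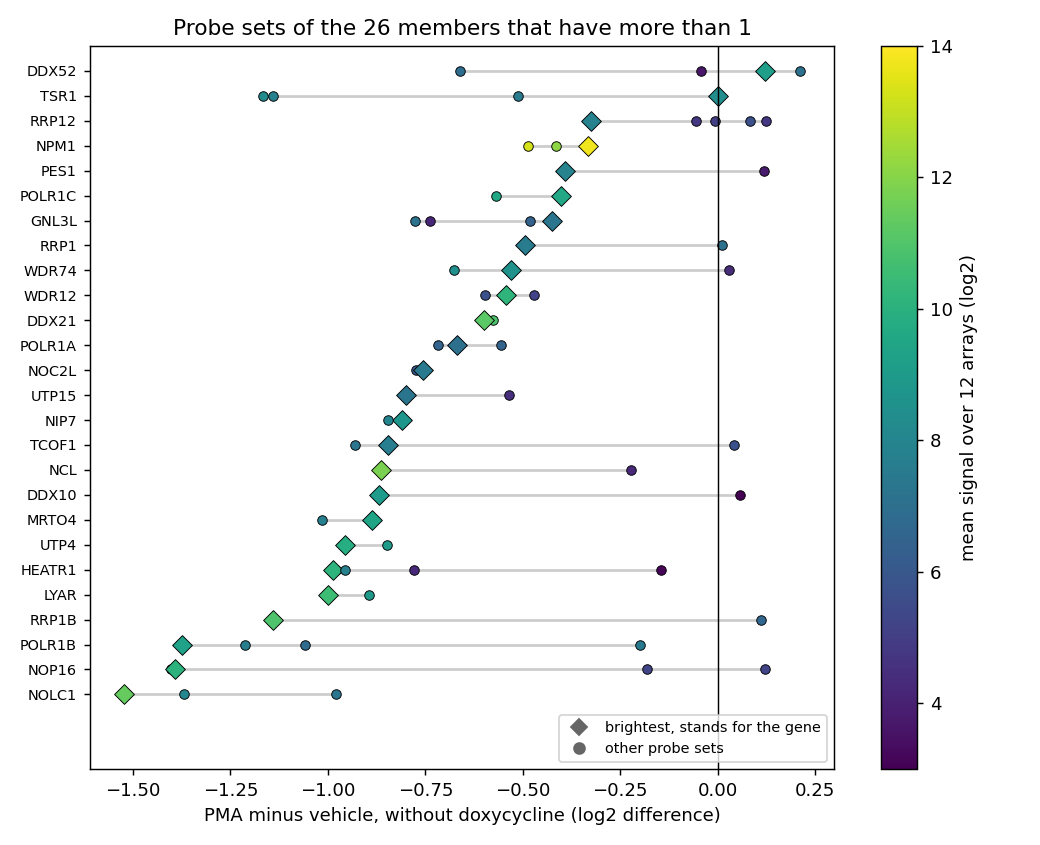
Difference between PMA and vehicle without doxycycline (log2, horizontal axis) for every single-gene probe set of the 26 genes that have more than 1, with a row per gene; diamonds mark the probe set that stands for the gene, circles the others, and colour gives the mean level over 12 arrays (log2). The 3 other TSR1 probe sets lie left of its diamond, and those of RRP1B and PES1 lie right of 0.

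The fall was present at each replicate number and smaller at number 1, the arrays with the larger ACTB 3′ minus 5′ difference. Without doxycycline the median difference over the 43 genes was -0.38 log2 between arrays numbered 1, -1.13 between those numbered 2 and -0.88 between those numbered 3, with 37, 42 and 41 of the 43 genes lower in PMA. With doxycycline the medians were -0.39, -0.99 and -1.03, with 36, 40 and 41 genes lower. Vehicle array 1 had the lowest level of its group in 42 of 43 genes, as against 34.6% of all genes, and vehicle with doxycycline array 1 in 38, against 34.3%. PMA array 1 had the highest level of its group in 24 genes, against 32.1% of all genes, and PMA with doxycycline array 1 in 33, against 41.8%. On the arrays numbered 2 and 3 alone, the medians were -0.997 and -0.97, and 40 and 38 genes were called lower. Of all 19775 genes 4012 and 4109 were called lower in that fit. By group the ACTB difference was 1.44 ± 0.49 in vehicle, 1.39 ± 0.89 in vehicle with doxycycline, 1.51 ± 0.76 in PMA and 1.89 ± 0.73 in PMA with doxycycline (SD, n = 3). Its part in the results was not tested.

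Doxycycline was given to induce the knockdown of ZXDC1/2, and the comparison asks whether that changes these genes in either state. None of the 43 was called. In vehicle 0 genes passed and 0 had an unadjusted p below 0.05 (limma, smallest adjusted p = 0.9998), and over all genes 0% were called and 510 had such a p. The differences ran from -0.21 to 0.04 log2 with a median of -0.08, and 33 of 43 were negative, against 44.7% of all genes. Their 95% intervals lay between -0.75 and 0.51, so a change of 1 log2 in either direction lay outside the interval of all 43 genes. DDX52 and NPM1 were lower on all 3 arrays with doxycycline, which was so for 3.47% of all genes; none of the 43 was higher on all 3, against 5.08% of all genes.

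In PMA 0 of 43 genes passed, against 0.00506% of all genes, and POLR1A and NOC3L had an unadjusted p below 0.05 (0.0208 and 0.0193), as did 1214 of all genes. The differences ran from -0.38 to 0.13 log2 with a median of -0.09, and 33 were negative, against 51.6% of all genes. Intervals of this unpaired fit lay between -0.95 and 0.50. POLR1A, RRS1, NOC2L and NOC3L were lower on all 3 arrays with doxycycline, 4 of 43 genes, where 5.90% of all genes were, and none of the 43 was higher on all 3, against 4.83%. NOC3L read 9.01, 8.68 and 8.84 in PMA and 8.64, 8.52 and 8.41 in PMA with doxycycline, a difference of -0.32 (adjusted p = 0.726). RRS1 had the largest difference, -0.38, and with the 3 replicate numbers of each agent as pairs its adjusted p was 0.117 and 0 of the 43 genes passed, while that fit called 26 lower and 27 higher of all 19775 genes. Unadjusted p-values of that paired limma fit were below 0.05 for more genes than in the unpaired fit, all of them lower with doxycycline. They were RRS1 (0.00198), NOC3L (0.0114), POLR1A (0.0155), FBL (0.0177), UTP20 (0.0287), DDX10 (0.0392) and NOP14 (0.0425). The matching count over all genes was not taken. In the unpaired fit the interaction called 0 genes of the list and 0% of all genes, with 0 and 518 at an unadjusted p below 0.05, and differences from -0.29 to 0.23. For 41 of the 43 genes its interval lay within 1 log2 of 0.

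**Figure D4:**
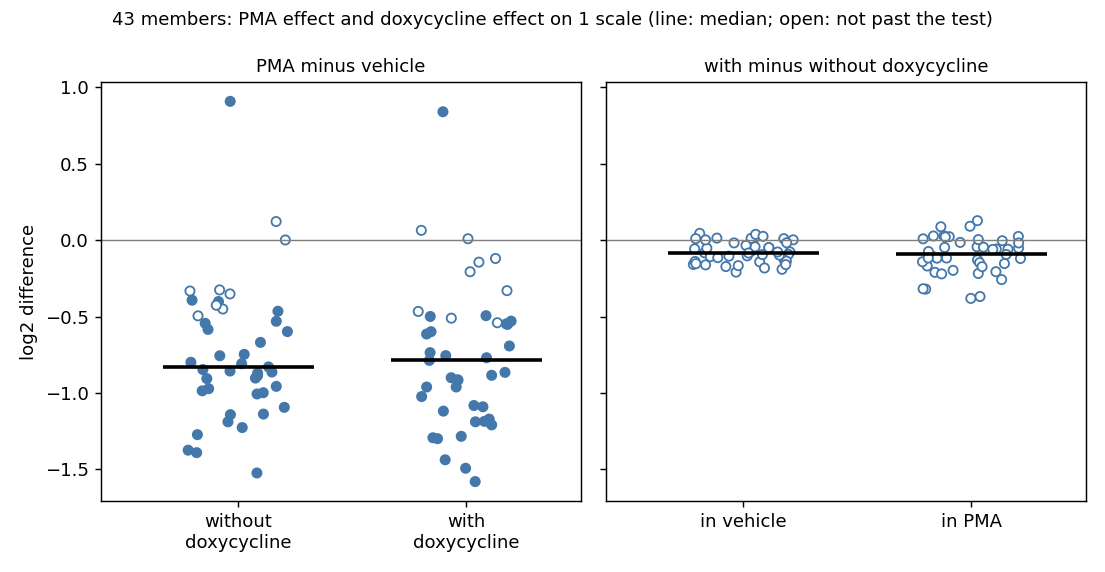
Differences (log2, vertical axis, the same scale in both panels) of the 43 genes between PMA and vehicle, without and with doxycycline, and between arrays with and without doxycycline, in vehicle and in PMA; each point is 1 gene, open where it did not pass the test, and lines mark medians. With PMA the medians lie at -0.83 and -0.79, while all differences with doxycycline lie between -0.38 and 0.13.

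The rest of the pathway was read from 114 further genes of ribosome assembly, of which 111 were measured. They too were chosen with earlier results of these data known. Without doxycycline 69 fell and 3 rose with PMA, a median of -0.49 log2, and with doxycycline 66 fell and 1 rose, a median of -0.53. The shares of all genes called lower are the 18.9% and 19.5% given above. Of 12 further genes of polymerase I transcription, 7 fell without and 6 with doxycycline. The polymerase subunits POLR1G and POLR1E differed by -1.17 (SE 0.20, adjusted p = 0.000368) and -1.03 (SE 0.18, adjusted p = 0.000526), and with doxycycline POLR1G differed by -1.07 and POLR1F by -0.997, all of them called. Of 10 genes that build the small nucleolar ribonucleoproteins, 8 and 7 fell. RUVBL2 and RUVBL1, the paired ATPases that also serve chromatin remodelling, led them with called differences of -1.58 (SE 0.11, adjusted p = 8.45e-08) and -1.40 (SE 0.18), and of -1.69 and -1.53 with doxycycline.

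Of 37 further genes of the small subunit, 23 fell and 1 rose without doxycycline, and 26 fell with it. The largest falls were those of WDR3 (-1.31 log2) and the kinase RIOK1 (-1.29), and with doxycycline those of WDR3 (-1.36) and the RNA acetyltransferase NAT10 (-1.26). UTP6 rose by 0.44 (SE 0.10, adjusted p = 0.00378), but its difference of 0.21 with doxycycline did not pass. Of 38 genes of the large subunit, 23 fell and 2 rose without doxycycline, and 19 fell and 1 rose with it. PAK1IP1 and LAS1L, the latter a nuclease partner in cutting the internal spacer, fell most, with differences of -1.17 and -1.09, and of -1.11 and -1.23 with doxycycline. ZNF622, a cytoplasmic maturation factor, rose by 0.76 (SE 0.11) and 0.79, and NOP53 rose by 0.53 (SE 0.14) without doxycycline but stood at -0.01 with it. Of 14 genes of the RNA exosome and its partners, which trim the precursor, 8 fell in each comparison. EXOSC2 (-1.38, SE 0.24) and EXOSC8 (-1.07, SE 0.15) fell most without doxycycline, and EXOSC2 (-1.60) and EXOSC3 (-1.09) with it.

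**Figure D5:**
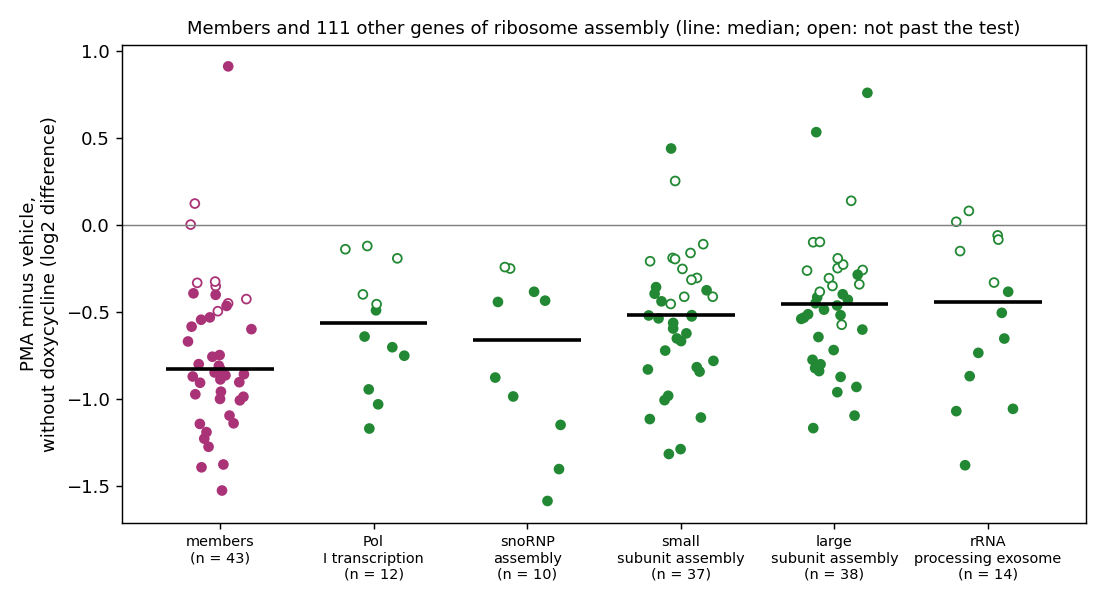
Difference between PMA and vehicle (log2) without doxycycline for the 43 listed genes and the 111 further pathway genes by role; each point is 1 gene, open where it did not pass the test, and the lines mark the medians. The medians of every role lie below 0, at -0.83 for the listed genes and -0.49 for the further genes without doxycycline.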

How the data were processed

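Total RNA of 12 cultures was hybridised to HG-U133 Plus 2.0 arrays. The deposited table holds log2 values; RMA is named in the submitters' processing notes, and its version is not given in the sources used here. Of 54675 probe sets, 62 controls were left out and 41091 with a single gene in the platform annotation were used; 1801 with several genes and 11721 with none name no gene. Symbols were updated through Entrez numbers to the GRCh38.p14 RefSeq table. Per gene the probe set with the highest mean was taken. limma 3.58.1 (R 4.3.3) was fitted to all 12 arrays with a mean per group, with Benjamini-Hochberg adjustment over 19775 genes and a call at 0.05. The array number limits the precision. The method was tested on simulated arrays with normal noise, in which 200 of 19775 genes were changed in PMA without doxycycline. Changes of 0.5, 1 and 2 log2 were recovered for 4.5%, 91.5% and 99% of these genes. False calls numbered 0, 16 and 13 among 19575 unchanged genes. In that setting most changes of 0.5 log2 were missed. The members, gene lists, gene pairs and motifs were chosen with earlier results of these data known. All members may be named; of further pathway genes, the 2 largest called changes per role and direction. Deviations from the group means correlated at 0.25 to 0.64 between arrays of one replicate number within an agent. Number 1 stood out, at 0.57 in vehicle and 0.64 in PMA. At numbers 2 and 3 another number reached 0.12 to 0.39, and for PMA number 2 it exceeded the own number (0.39 against 0.29). Across agents the correlations were -0.01 to 0.20, with the number 1 pairs at 0.16 and 0.20. Alternatives covered probe set choice, normalization, dim genes, single arrays and the replicate block.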

Additional observations from a re-analysis of the deposited data

How the results depend on the processing

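Leaving out each of the 12 arrays in turn, 28 to 37 of the listed genes were called lower with PMA without doxycycline. In the arms with doxycycline 27 to 37 were. The medians ran from -0.98 to -0.69 and from -0.88 to -0.69 log2. Of all 19775 genes 3138 to 3887 and 3351 to 3986 were called lower. The further pathway genes gave 50 to 73 and 57 to 73 falls. With doxycycline as the contrast the counts of listed genes stayed at 0 throughout, with medians from -0.21 to 0.05 in vehicle and -0.14 to -0.05 in PMA. Of the 34 and 33 falls, 28 and 27 were called in all 12 of these fits and 26 and 25 under every alternative that measured them (FBL, NHP2, NOP14 and LYAR have no probe set of unshared sequence); those lost in some were DDX21, NCL, NIP7, NOP2, PES1, POLR1C, TCOF1 and UTP20 without doxycycline, and GNL3L, IMP4, NCL, NIP7, NOP2, TCOF1, UTP15 and WDR74 with it. With cyclic loess 30 and 27 listed genes were called lower, beside 3213 and 3309 of all 19775 genes. With quantile normalization 31 and 29 were, beside 3424 and 3506 of all genes. On arrays numbered 2 and 3, the medians were -0.997 and -0.97, and -0.66 for the further genes without doxycycline. Without probe sets of shared sequence, 35 listed genes remained measured, TCOF1 without doxycycline stood at 0.0417 (adjusted p = 0.836), 40 and 43 of 85 further genes were called lower and 2 higher with doxycycline. Of the 35 listed genes 26 were called lower in each comparison, beside 2802 and 2906 of all 16788 genes. With all probe sets of a gene averaged, TSR1 stood at -0.70 (adjusted p = 0.00791) and -0.67 (adjusted p = 0.0103), and 3 further genes were called higher with doxycycline, as with cyclic loess. The replicate block over all groups called 38 and 35 listed genes lower, beside 4138 and 4247 of all 19775 genes. It added RRP9 and RRP1 in both comparisons, NPM1 and GNL3L without doxycycline and PES1 with it. It lost UTP15 with doxycycline (adjusted p = 0.0503). Across agents the deviations of arrays with one number correlated weakly, at -0.01 to 0.20. Pairing within an agent called 0 listed genes for doxycycline. RRN3 was called without PMA replicate 1, at -0.56 (adjusted p = 0.02). The fit over all probe sets, the pairs on arrays numbered 2 and 3, and median centring were chosen after seeing the data.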
